A study of Mus musculus with 4 samples.

Results

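S100 proteins and annexins were followed in Exosc3-depleted and Exosc3-present mouse embryonic stem cells through 10 genes: S100a1, S100a4, S100a6, S100a10, S100a11, S100a13, Anxa1, Anxa2, Anxa3 and Anxa5. These genes were chosen by gene symbol with the measured values of the same comparison in view, so their levels are a description and carry no test. A row was found for 9 of the 10 symbols, 6 for S100 genes and 3 for annexins, among 22883 rows in all, and the RNA level of Anxa2 is not analysed here, though its promoter sequence is. The cells were Exosc3 CKO (conditional knockout) clones derived from V6.5, an embryonic stem cell line grown without feeders, and all clones had been kept in 0.1 µg/ml doxycycline. Exosc3-depleted cells had been off doxycycline for 3 days and Exosc3-present cells stayed on it for the same 3 days, with 2 libraries in each group. Ribosomal RNA was removed from total RNA before stranded, paired-end sequencing. No group had doxycycline without Exosc3 or the reverse, so an effect of the drug and one of the lost gene product cannot be told apart. The labels do not say how many clones were used or whether replicates came from separate cultures, so p-values measure only the spread between these libraries, which may be technical.

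S100 proteins are small calcium sensors built from a pair of EF-hand loops. They mostly act as dimers that bind a target protein when calcium is high. Annexins bind acidic phospholipids of the inner cell membrane in the presence of calcium and help in membrane traffic, repair of membrane wounds and linkage to cortical actin. Several S100 proteins pair with annexins: S100A10 joins annexin A2, S100A11 binds annexin A1, and S100A6 binds annexin A11 among others.

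The table gave FPKM, that is, fragments scaled to the length of the gene model and to the library total. The total behind each library, recovered from the spacing of the values, was 38095673 and 41968321 fragments in the Exosc3-depleted libraries and 60851781 and 55233391 in the Exosc3-present ones. Exosc3 itself, a core subunit of the RNA exosome, had 0.635 and 0.691 FPKM in Exosc3-depleted libraries, against 24.2 and 23.2 FPKM in Exosc3-present libraries (log2 difference -4.38 ± 0.18 SE, limma adjusted p = 0.0001295), in the direction of the labels. Among all 9336 rows with a mean of at least 0.5 FPKM, 12.6% rose and 30.1% fell at a limma adjusted p under 0.05, or 42.7% in either direction, and the median row differed by -0.27 on the log2 scale. Of the rows that passed, 29.6% were higher in Exosc3-depleted cells, a share that was 52.5%, 46.8% and 53.7% after median-of-ratios scaling, quantile normalization and scaling without the 50 highest rows. Of 10 pluripotent stem cell markers 7 had a row, of which 5 fell, while Pou5f1 and Utf1 did not pass (limma adjusted p = 0.167 and 0.339). The 7 summed to 1943 and 1278 FPKM in Exosc3-depleted libraries, against 3022 and 3027 FPKM in Exosc3-present libraries. Most of that sum was Dppa5a, with 1357 and 817 FPKM in Exosc3-depleted libraries, against 2206 and 2230 FPKM in Exosc3-present libraries.

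S100a6, calcyclin, a calcium sensor known as a growth-regulated gene, had the highest level and the highest log2 difference among these genes. It stood at 254 and 189 FPKM in Exosc3-depleted libraries, against 8.14 and 8.23 FPKM in Exosc3-present libraries. The 2 Exosc3-depleted libraries differed from each other, yet both lay far above the Exosc3-present pair, which were almost alike. The means were 222 ± 45.9 and 8.19 ± 0.07 FPKM (SD, n = 2 each), a 27.1-fold ratio and a log2 difference of 4.66. It lay at place 4 when the 9336 rows were ordered from the largest log2 difference down. In bulk RNA, more cells with a transcript and more RNA per cell cannot be told apart. In rank of level among the 15471 rows above 0 in any library, S100a6 lay at the 98.8th percentile of the Exosc3-depleted means and at the 77.1st percentile of the Exosc3-present means. The values rested on 6967 and 5716 fragments in Exosc3-depleted libraries and 356 and 327 in Exosc3-present libraries. The 250 bases before its start site are shown because this gene leads the family; they lie at chr3:90612644-90612893 on the plus strand of GRCm38.p6 in the RefSeq table and hold none of the 4 motifs searched, so no base is in capitals.
S100a6: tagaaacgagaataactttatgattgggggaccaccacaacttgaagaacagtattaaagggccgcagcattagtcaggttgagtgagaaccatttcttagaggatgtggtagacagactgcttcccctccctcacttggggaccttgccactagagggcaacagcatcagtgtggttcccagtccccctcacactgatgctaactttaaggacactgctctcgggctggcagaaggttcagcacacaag

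S100a10 and S100a11 were the next most abundant, and both were moderately higher in Exosc3-depleted cells. S100a10, or p11, has lost calcium binding and stays in an active shape as the light chain of annexin A2. It had 76.0 and 62.4 FPKM in Exosc3-depleted libraries, against 46.2 and 40.7 FPKM in Exosc3-present libraries. The groups did not overlap, and the means of 69.2 ± 9.60 and 43.5 ± 3.90 FPKM (SD, n = 2 each) gave a 1.59-fold ratio and a log2 difference of 0.66. S100a11, calgizzarin, an annexin A1 partner at the membrane, had 20.6 and 23.4 FPKM in Exosc3-depleted libraries, against 14.3 and 12.5 FPKM in Exosc3-present libraries. Again both Exosc3-depleted libraries were above both others, with means of 22.0 ± 1.997 and 13.4 ± 1.28 FPKM (SD, n = 2 each), a 1.64-fold ratio and a log2 difference of 0.69. In the same order S100a10 lay at place 1072 and S100a11 at place 1030.

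The stretch before the S100a11 start is shown because it held the most motif matches among the 8 of the 10 genes with a promoter entry, those of S100a1, S100a4, S100a6, S100a11, S100a13, Anxa1, Anxa2 and Anxa5. It lies at chr3:93520246-93520495 on the plus strand of GRCm38.p6 (RefSeq), and capitals mark an E-box (CACGTG) that begins 223 bases before the start and 2 AP-1 letters (TGANTCA, in which N is any base) that begin 136 and 38 bases before it.
S100a11: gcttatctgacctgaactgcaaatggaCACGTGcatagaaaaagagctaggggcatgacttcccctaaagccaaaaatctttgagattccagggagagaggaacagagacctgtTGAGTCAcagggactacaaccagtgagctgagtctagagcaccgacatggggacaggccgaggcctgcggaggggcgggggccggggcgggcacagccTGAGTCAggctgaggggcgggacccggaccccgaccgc
In windows of 300 bases, 250 before and 50 after the start, searched on both strands, AP-1 letters were found in 2 of 8 genes, S100a11 and Anxa2, against 7.81% of all 32851 promoters. The letters of a TATA box (TATAAA), taken at any place in the window, were found in 3 of 8, against 13.6% of all. They began 31 bases before the start in S100a4, 32 in Anxa1 and 17 in Anxa2. The E-box was found in 2 of 8, S100a11 and S100a6, against 7.15% of all, and lay after the start in S100a6, outside the stretch printed. TEAD letters (GGAATG) were found in 1 of 8, Anxa1, against 14.7% of all. The letters of the 4 motifs do not overlap as searched, they were picked with these promoters in view, and a match is neither a bound site nor a cause.

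S100a1 and S100a13 are head-to-head neighbours, and their log2 differences had opposite signs. S100a1, known in the heart for its binding to calcium pumps and release channels, had 1.37 and 1.12 FPKM in Exosc3-depleted libraries, against 0.882 and 0.942 FPKM in Exosc3-present libraries. Both Exosc3-depleted values were above both others by a small step, with means of 1.24 ± 0.17 and 0.912 ± 0.043 FPKM (SD, n = 2 each), a 1.36-fold ratio and a log2 difference of 0.30. S100a13, which takes part in the unconventional secretion of FGF1, had 0.844 and 0.801 FPKM in Exosc3-depleted libraries, against 1.63 and 1.11 FPKM in Exosc3-present libraries. It was the one gene of the 9 with both Exosc3-depleted libraries below both Exosc3-present libraries, and the Exosc3-present pair was wide. Its means were 0.823 ± 0.030 and 1.37 ± 0.37 FPKM (SD, n = 2 each), a ratio of 0.599 and a log2 difference of -0.49, or -0.22 relative to the median row. Both genes rested on few fragments: S100a1 on 32 and 29 in Exosc3-depleted libraries and 33 and 32 in Exosc3-present libraries, S100a13 on 22 and 23 in Exosc3-depleted libraries and 68 and 42 in Exosc3-present libraries. The libraries were stranded, but whether the counting used strand is not given in the sources used here, so reads of overlapping opposite transcripts may not be told apart. The 104 bases between the S100a1 start (minus strand) and the S100a13 start (plus strand) are shown as the sequence both genes share; they lie at chr3:90514331-90514434 of GRCm38.p6 (RefSeq), are printed on the plus strand, hold 58.7% G or C and match none of the 4 motifs.
S100a1 and S100a13, between starts: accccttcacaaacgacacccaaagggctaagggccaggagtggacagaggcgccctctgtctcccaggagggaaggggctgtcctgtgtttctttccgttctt

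S100a4, a partner of non-muscle myosin known from migrating and invasive cells, was close to undetected. It had 0.0526 and 0.287 FPKM in Exosc3-depleted libraries, against 0 and 0.254 FPKM in Exosc3-present libraries. The groups overlapped, and the values stood for 1 and 6 fragments in Exosc3-depleted libraries and 0 and 7 in Exosc3-present libraries. Exact 95% Poisson intervals, which cover counting error only, ran from 2.20 to 13.1 for 6 fragments and from 2.81 to 14.4 for 7, so no difference was detectable at this depth. S100a4 was the only one of the 9 with a mean under 0.5 FPKM, which left it out of the filtered rows.

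**Figure D1:**
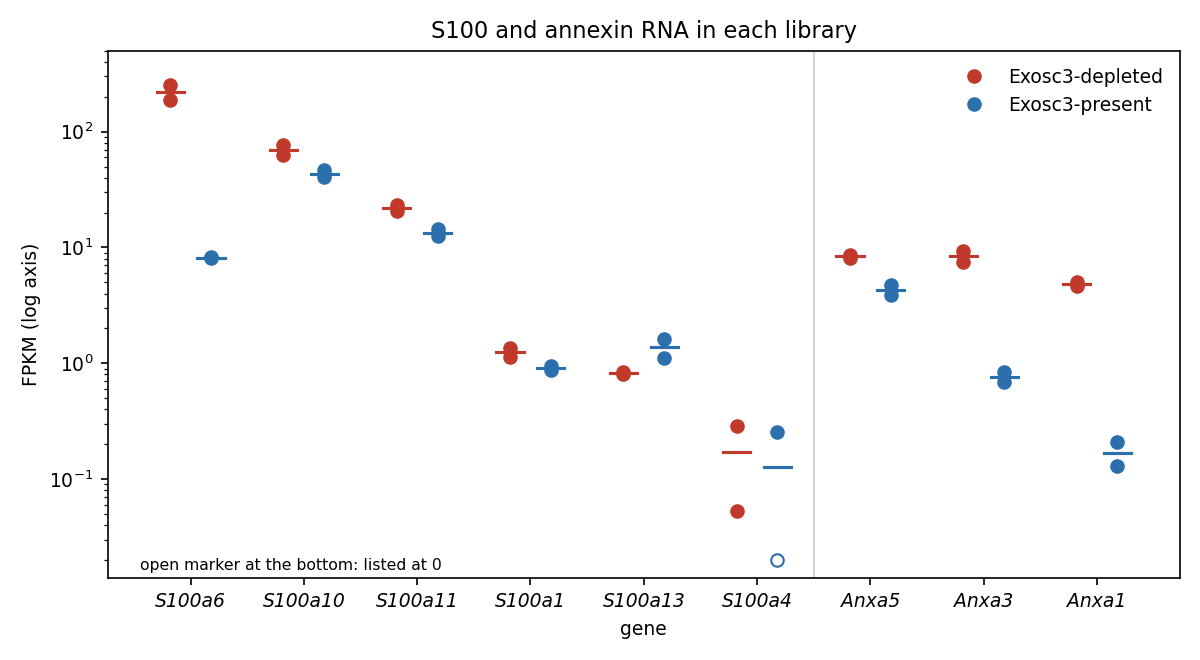
FPKM (log axis) of the 6 S100 genes, left, and the 3 annexins, right, with Exosc3-depleted libraries in red and Exosc3-present libraries in blue; dots are libraries, bars are means of 2, and the open dot at the bottom is a value listed at 0. S100a6, Anxa3 and Anxa1 show the widest gaps between groups, S100a13 has its red dots below its blue ones, and S100a4 overlaps.

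All 3 annexins with a row were higher in Exosc3-depleted cells, and the 2 that were almost silent in Exosc3-present cells had by far the wider gaps. Anxa1, an effector of glucocorticoid action and a substrate of the epidermal growth factor receptor, had 5.04 and 4.61 FPKM in Exosc3-depleted libraries, against 0.130 and 0.208 FPKM in Exosc3-present libraries. The groups were far apart, with means of 4.83 ± 0.30 and 0.169 ± 0.055 FPKM (SD, n = 2 each), a 28.6-fold ratio. The log2 difference was 3.00 and is smaller than the ratio implies, because 0.5 FPKM was added before the logarithm. The Exosc3-present level stood for 11 and 16 fragments (95% Poisson intervals 5.49 to 19.7 and 9.15 to 26.0), against 268 and 270 in Exosc3-depleted libraries. Anxa1 passed the filter on low values only through the Exosc3-depleted libraries.

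The 250 bases before the Anxa1 start are shown because this gene had the largest ratio of means of the 9. They lie at chr19:20390672-20390921 on the minus strand of GRCm38.p6 (RefSeq), printed in the direction of the gene. Capitals mark TEAD letters on the opposite strand (CATTCC), which begin 236 bases before the start, and a TATA box that begins 32 bases before it.
Anxa1: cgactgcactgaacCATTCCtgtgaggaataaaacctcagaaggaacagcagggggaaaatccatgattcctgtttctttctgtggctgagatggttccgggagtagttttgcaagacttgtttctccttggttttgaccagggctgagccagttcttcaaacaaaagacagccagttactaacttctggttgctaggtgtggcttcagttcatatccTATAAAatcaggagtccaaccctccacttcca

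Anxa3, an annexin best known from neutrophil granules, had 7.53 and 9.40 FPKM in Exosc3-depleted libraries, against 0.689 and 0.839 FPKM in Exosc3-present libraries. Every Exosc3-depleted value was far above every Exosc3-present value, and the means of 8.46 ± 1.32 and 0.764 ± 0.106 FPKM (SD, n = 2 each) gave an 11.1-fold ratio and a log2 difference of 2.82. Anxa5, which binds exposed phosphatidylserine and is used as a stain for dying cells, had 8.18 and 8.56 FPKM in Exosc3-depleted libraries, against 3.92 and 4.74 FPKM in Exosc3-present libraries. Its groups did not overlap either, but the gap was smaller, with means of 8.37 ± 0.27 and 4.33 ± 0.58 FPKM (SD, n = 2 each), a 1.93-fold ratio and a log2 difference of 0.88. By size of log2 difference Anxa1 lay at place 36, Anxa3 at place 43 and Anxa5 at place 782 of 9336.

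Of the 9 genes with a row, 7 had both Exosc3-depleted libraries above both Exosc3-present libraries, beside 22.2% of all 9336 rows, and 1 had both below, beside 50.9%; 8 of the 9 passed the filter. Nothing is read from these counts, since the genes were selected on this contrast. In Exosc3-depleted cells the levels ran from S100a6 through S100a10 and S100a11 to Anxa3 and Anxa5, then Anxa1, S100a1, S100a13 and S100a4. Anxa3 and Anxa5 overlapped there and cannot be ordered. In Exosc3-present cells the order was S100a10, S100a11, S100a6, Anxa5, S100a13, S100a1, Anxa3, Anxa1 and S100a4, in which S100a13, S100a1 and Anxa3 lay apart by little more than their spread and Anxa1 and S100a4 overlapped. Thus S100a6 led in Exosc3-depleted cells and stood behind S100a10 and S100a11 in Exosc3-present cells.

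The S100 family differed between groups in its leading gene, S100a6 in Exosc3-depleted cells and S100a10 in Exosc3-present cells. The 16 S100 rows summed to 357 and 281 FPKM in Exosc3-depleted libraries, against 73.9 and 65.8 FPKM in Exosc3-present libraries. S100a6 made up 71.2% and 67.5% of that sum in Exosc3-depleted libraries, against 11.01% and 12.5% in Exosc3-present libraries. S100a10 made up 21.3% and 22.2% in Exosc3-depleted libraries, against 62.6% and 61.9% in Exosc3-present libraries. S100a10 thus had a higher level but a lower share of the family in Exosc3-depleted cells. The share of S100a11 was 5.77% and 8.35% in Exosc3-depleted libraries, against 19.4% and 19.0% in Exosc3-present libraries.

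The annexin sum differed little between groups, and its direction depended on the scaling. The 9 annexin rows summed to 103 and 98.5 FPKM in Exosc3-depleted libraries, against 117 and 128 FPKM in Exosc3-present libraries, a log2 ratio of mean sums of -0.28, close to the median row. That ratio was 0.05 after median-of-ratios scaling and 0.06 after scaling without the 50 highest rows, with overlapping groups under both, and 0.08 after quantile normalization. For the S100 sum it was 2.19, and 2.52 to 2.58 under the 3 other scalings. Anxa1, Anxa3 and Anxa5 made up a minor part of the sum in every library. Anxa5 held 7.93% and 8.69% in Exosc3-depleted libraries, against 3.36% and 3.69% in Exosc3-present libraries, and Anxa3 held 7.29% and 9.54% in Exosc3-depleted libraries, against 0.590% and 0.654% in Exosc3-present libraries. Anxa1 held 4.89% and 4.68% in Exosc3-depleted libraries, against 0.111% and 0.162% in Exosc3-present libraries. In all 4 libraries Anxa11 and Anxa6 were the 2 most abundant of the 9 annexins with a row. Anxa2, Anxa8 and Anxa9 had no row, so they are in neither this order nor the sum.

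**Figure D2:**
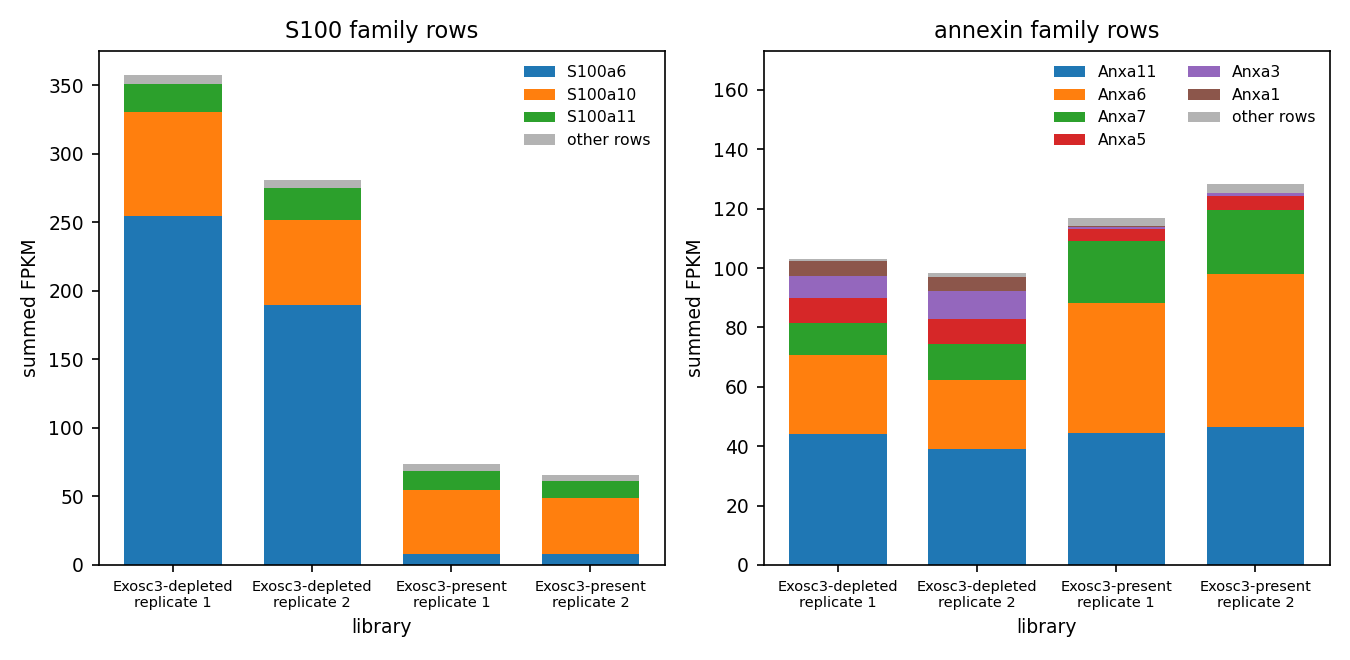
Summed FPKM of the 16 S100 rows, left, and the 9 annexin rows, right, in each of the 4 libraries, split by gene; the axes start at 0 and have different ranges. S100a6 fills most of the 2 Exosc3-depleted S100 columns and little of the Exosc3-present ones, while the 4 annexin columns differ little in height and more in makeup.

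The scaling of the libraries moved these values but not their signs in the 8 genes that passed the filter. Under the deposited scaling and the 3 others, the log2 difference lay between 4.66 and 5.05 for S100a6, between 3.00 and 3.20 for Anxa1, between 2.82 and 3.09 for Anxa3 and between 0.88 and 1.20 for Anxa5. It lay between 0.66 and 1.07 for S100a10, between 0.69 and 1.03 for S100a11, between 0.30 and 0.54 for S100a1 and between -0.49 and -0.26 for S100a13. Leaving out 1 library at a time gave 4.45 to 4.87 for S100a6, 2.91 to 3.08 for Anxa1 and 2.67 to 2.97 for Anxa3. It gave -0.19 to 0.40 for S100a4, whose sign therefore hangs on single libraries.

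Among the other genes with an S100 domain, S100a3 rose and most of the rest were too low to test. Of 18 listed genes 17 had a row, 6 of these were listed at 0 in all libraries, and 2 passed the filter, of which 1 rose. Among all rows 12.6% rose, a share that 2 tested genes are too few to be set beside. S100a3, a cysteine-rich S100 protein of the hair cuticle, had 1.51 and 1.41 FPKM in Exosc3-depleted libraries, against 0 and 0 FPKM in Exosc3-present libraries. The Exosc3-depleted mean was 19.1-fold a floor of 3 fragments per library (0.0763 FPKM in the library with the higher floor). That floor was a chosen value and gives no lower bound, since the 95% Poisson interval of 0 fragments reached 3.69. The log2 difference was 1.97 ± 0.14 SE, with a limma adjusted p of 0.0002862. S100a3 passed the filter only through the Exosc3-depleted libraries. S100a16 had 2.08 and 1.12 FPKM in Exosc3-depleted libraries, against 2.32 and 1.57 FPKM in Exosc3-present libraries, which overlapped (limma adjusted p = 0.513).

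Among the annexins outside the chosen genes, the tested ones that passed all fell. Anxa1, Anxa3 and Anxa5, all higher, had been taken out with this contrast in view. The direction of the rest is thus partly set by that choice and is not read as a trait of the family. Of 8 listed, 6 had a row and 4 were tested, and 3 of the 4 fell, beside 30.1% of all rows. The 4 had a median log2 difference of -0.89, or -0.63 relative to the median row. Anxa6, a large annexin with a doubled core, had 26.8 and 23.4 FPKM in Exosc3-depleted libraries, against 43.8 and 51.5 FPKM in Exosc3-present libraries (log2 difference -0.91 ± 0.18 SE, limma adjusted p = 0.00708). Anxa7, synexin, had 10.9 and 11.9 FPKM in Exosc3-depleted libraries, against 20.9 and 21.7 FPKM in Exosc3-present libraries (log2 difference -0.88 ± 0.17 SE, limma adjusted p = 0.00679). Anxa4 had 0.852 and 1.55 FPKM in Exosc3-depleted libraries, against 2.79 and 2.93 FPKM in Exosc3-present libraries (log2 difference -1.01 ± 0.24 SE, limma adjusted p = 0.0135). In all 3 genes the groups were apart. Anxa11, a partner of S100A6, had 43.9 and 38.9 FPKM in Exosc3-depleted libraries, against 44.5 and 46.3 FPKM in Exosc3-present libraries (limma adjusted p = 0.552), and its log2 difference of -0.13 was positive, 0.18 to 0.27, under the 3 other scalings. After median-of-ratios scaling Anxa4 alone passed, whereas without the 50 highest rows Anxa4 was the one that did not (limma adjusted p = 0.091); all 3 passed after quantile normalization. Without Exosc3-present replicate 2 the limma adjusted p was 0.0664 for Anxa4, 0.132 for Anxa6 and 0.128 for Anxa7, and without replicate 1 it was 0.0934 for Anxa7.

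The known partners and targets of these proteins were split. Of 36 listed, 29 had a row and 18 were tested (median log2 difference 0.19). Of these, 6 rose, 4 fell and 8 (44.4%) did not pass, against 12.6%, 30.1% and 57.3% of all rows. Ahnak2, a giant scaffold related to the complex's partner Ahnak, had 15.2 and 13.045 FPKM in Exosc3-depleted libraries, against 2.70 and 2.61 FPKM in Exosc3-present libraries (log2 difference 2.21 ± 0.19 SE, limma adjusted p = 0.000383). Plaur, the receptor of urokinase, had 20.8 and 18.8 FPKM in Exosc3-depleted libraries, against 5.96 and 5.17 FPKM in Exosc3-present libraries (log2 difference 1.74 ± 0.18 SE, limma adjusted p = 0.00073). Cald1, the actin-binding caldesmon, had 5.28 and 11.007 FPKM in Exosc3-depleted libraries, against 0.876 and 0.817 FPKM in Exosc3-present libraries (log2 difference 2.60 ± 0.32 SE, limma adjusted p = 0.00129). In each of the 3 genes the groups were well apart, although the Exosc3-depleted pair was wide for Cald1. Ahnak itself had 11.9 and 42.2 FPKM in Exosc3-depleted libraries, against 5.16 and 6.67 FPKM in Exosc3-present libraries (limma adjusted p = 0.0255). Of the plasminogen genes listed, Plg itself was at 0 in every library and Plau, urokinase, averaged under 0.5 FPKM and was not tested. The other rises were Plat, tissue plasminogen activator (log2 difference 1.24), which passed the filter only through the Exosc3-depleted libraries, and Plgrkt, a plasminogen receptor (0.89), which did not pass without Exosc3-present replicate 1 (limma adjusted p = 0.199) or 2 (0.0929).

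The 4 falls among partners were an ion channel, a calcium pump and a pair of chaperone partners. Asic1, an acid-sensing channel whose surface level S100A10 raises, had 1.16 and 0.988 FPKM in Exosc3-depleted libraries, against 3.85 and 4.28 FPKM in Exosc3-present libraries (log2 difference -1.54 ± 0.18 SE, limma adjusted p = 0.00117). Both Exosc3-depleted libraries lay below both others by a wide step. Stip1 and Fkbp4, HSP90 cochaperones with repeats that S100 proteins bind, had log2 differences of -1.40 and -1.13 (limma adjusted p = 0.00164 and 0.00362). Ppp5c, a phosphatase of HSP90 with the same kind of repeat, had 43.2 and 33.5 FPKM in Exosc3-depleted libraries, against 29.1 and 30.7 FPKM in Exosc3-present libraries (log2 difference 0.35, limma adjusted p = 0.18). It passed as higher after quantile normalization (0.0204) and without the 50 highest rows (0.0266), but not after median-of-ratios scaling (0.0568). Under the deposited scaling Stip1 and Fkbp4 thus fell, while Ppp5c did not pass. Atp2a2, the endoplasmic reticulum calcium pump, had a log2 difference of -1.25 (limma adjusted p = 0.00506). Cacybp, the calcyclin-binding protein named for S100A6, had 35.2 and 27.5 FPKM in Exosc3-depleted libraries, against 38.4 and 51.5 FPKM in Exosc3-present libraries (limma adjusted p = 0.0989).

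Genes of membrane repair and of ESCRT-III, the machinery that cuts damaged membrane away, included single genes with clear rises. Of 33 listed, 27 had a row and 22 were tested, of which 5 rose, 2 fell and 15 (68.2%) did not pass, against 57.3% of all rows (median log2 difference -0.04). Cpne2, a copine that binds phospholipids as annexins do, had 6.15 and 5.86 FPKM in Exosc3-depleted libraries, against 0.807 and 0.724 FPKM in Exosc3-present libraries (log2 difference 2.36 ± 0.18 SE, limma adjusted p = 0.000296). Myof, the ferlin myoferlin, had 3.18 and 7.88 FPKM in Exosc3-depleted libraries, against 1.11 and 1.46 FPKM in Exosc3-present libraries (log2 difference 1.64 ± 0.37 SE, limma adjusted p = 0.0121). Both genes had groups that were apart and passed with any 1 library left out. Pdcd6ip, or ALIX, which links damage to ESCRT-III, had 11.5 and 13.6 FPKM in Exosc3-depleted libraries, against 6.25 and 6.81 FPKM in Exosc3-present libraries (limma adjusted p = 0.00875). Ehd2, a caveolar ATPase, had 1.12 and 1.23 FPKM in Exosc3-depleted libraries, against 0.564 and 0.545 FPKM in Exosc3-present libraries (limma adjusted p = 0.0139). Neither passed without Exosc3-present replicate 1 or 2 (limma adjusted p between 0.0926 and 0.198). The fifth rise was Ptrf, a caveolar coat protein (log2 difference 0.61), which did not pass without Exosc3-present replicate 1 (limma adjusted p = 0.344) or 2 (0.351). The 2 falls, Chmp4b and Pdcd6, did not pass under any of the 3 other scalings or without either Exosc3-present library.

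Other EF-hand genes, which share the calcium-binding loop, were listed to set the S100 genes beside the wider class. Of 40 listed, 33 had a row and 27 were tested, with a median log2 difference of -0.32, close to that of all rows. Of these, 3 rose, 11 fell and 13 (48.1%) did not pass, against 12.6%, 30.1% and 57.3% of all rows. The split was 6 and 8 after median-of-ratios scaling, 7 and 9 after quantile normalization and 7 and 8 after scaling without the 50 highest rows. Plcd1, a calcium-activated phospholipase C, had 2.53 and 1.96 FPKM in Exosc3-depleted libraries, against 11.8 and 12.3 FPKM in Exosc3-present libraries (log2 difference -2.20 ± 0.20 SE, limma adjusted p = 0.000445). Sparc, a secreted matrix protein, had 87.6 and 83.3 FPKM in Exosc3-depleted libraries, against 31.2 and 35.1 FPKM in Exosc3-present libraries (log2 difference 1.36 ± 0.16 SE, limma adjusted p = 0.00122). Both genes had groups that were wide apart, in opposite directions. Hpcal1, of the neuronal calcium sensor family, and Efhd2, a cytoskeletal EF-hand protein, had log2 differences of 1.30 and -1.44 (limma adjusted p = 0.00186 and 0.00213). Calm2 and Calm3, which encode calmodulin, had log2 differences of -1.15 and -0.88 (limma adjusted p = 0.00385 and 0.0221), and Calm3 did not pass under the 3 other scalings.

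**Figure D3:**
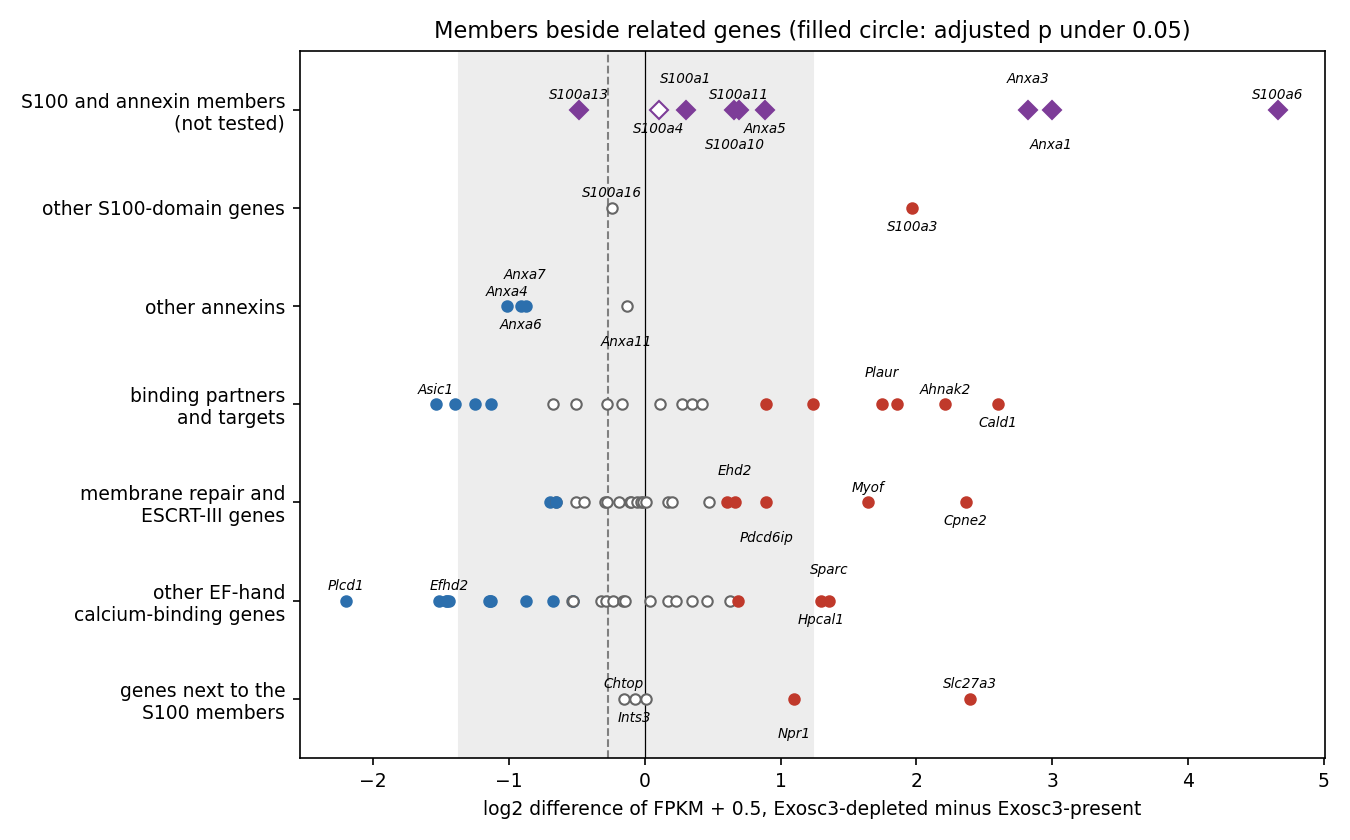
Log2 difference of FPKM + 0.5, Exosc3-depleted minus Exosc3-present, for the chosen S100 and annexin genes (diamonds, not tested; the open one, S100a4, is under the filter) and the tested genes of the 6 related lists (circles, red or blue where the adjusted p is under 0.05, open otherwise). The grey band holds the values between the 5th and 95th percentile of the 9336 rows and the dashed line is their median of -0.27. S100a6, Anxa1 and Anxa3 lie right of the band. Listed genes right of it include Cald1, Slc27a3, Cpne2, Ahnak2 and S100a3, and listed genes left of it include Plcd1, Asic1 and Stip1.

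All 6 S100 genes lie on chromosome 3, and higher levels were not shared by the whole neighbourhood. Taken as neighbours were the 5 nearest coding genes with a row on each side of each S100 gene, outside the S100 symbols, 20 in all. They include epidermal genes and S100-fused genes, 5 of which also belong to the list of S100 domains. Of the 20, 7 were listed at 0 in every library and 5 were tested, of which 2 rose, beside 12.6% of all rows. Slc27a3, a fatty acid transport protein, had 25.4 and 20.4 FPKM in Exosc3-depleted libraries, against 4.20 and 3.65 FPKM in Exosc3-present libraries (log2 difference 2.40 ± 0.20 SE, limma adjusted p = 0.000355). Npr1, the receptor of atrial natriuretic peptide, had 6.39 and 4.77 FPKM in Exosc3-depleted libraries, against 2.36 and 2.26 FPKM in Exosc3-present libraries (log2 difference 1.10 ± 0.21 SE, limma adjusted p = 0.0061), a rise that was lost with Exosc3-present replicate 2 left out (0.0673). Between and beside these, Ints3 and Chtop overlapped between groups (log2 differences -0.07 and -0.16, limma adjusted p = 0.746 and 0.548). Among the neighbours under the filter, Sprr2a1, Tchh and the Tdpoz genes had both Exosc3-depleted libraries above both Exosc3-present libraries. All of these averaged under 0.5 FPKM, and the rest under the filter overlapped or were at 0. S100a3 and S100a6 are parted in gene order by S100a2, S100a4 and S100a5, each of which averaged under 0.5 FPKM.

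**Figure D4:**
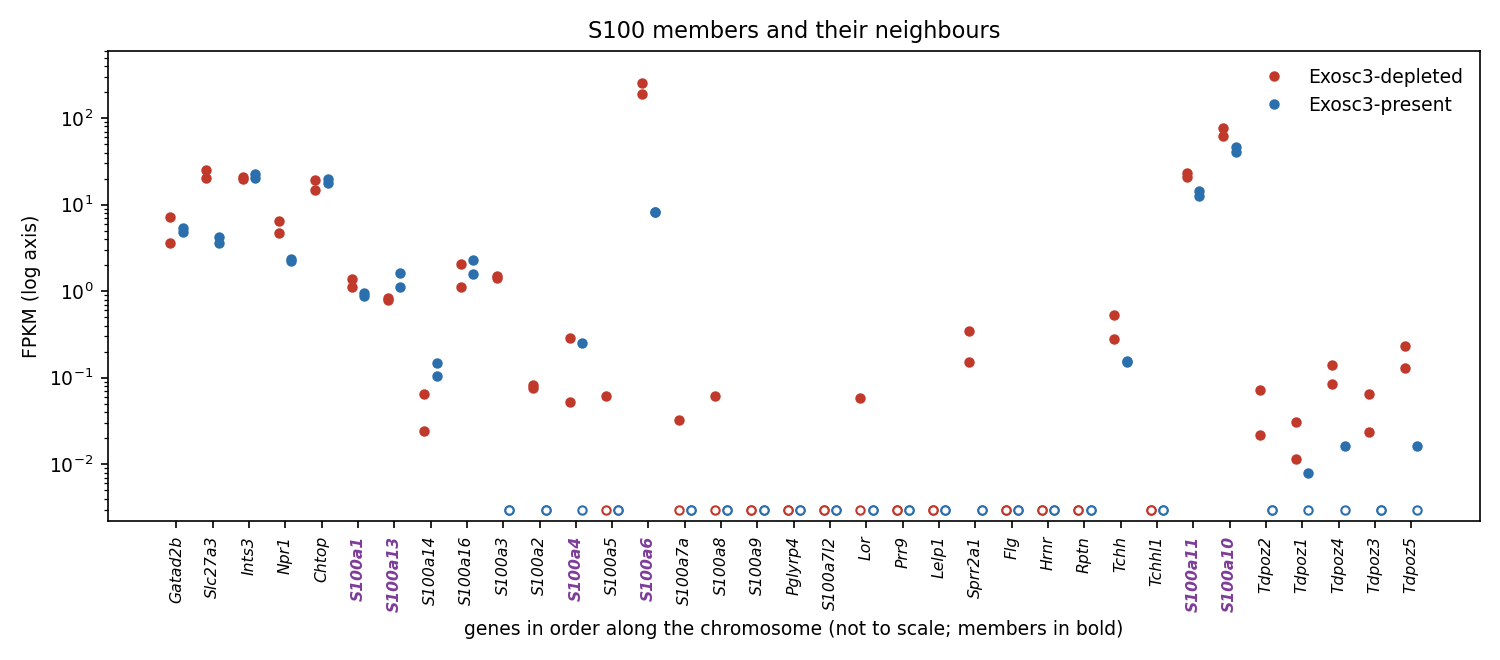
FPKM (log axis) of the 6 S100 genes, in bold, and their neighbours on chromosome 3, in gene order and not to scale, with Exosc3-depleted libraries in red and Exosc3-present libraries in blue. Genes farther from an S100 gene than the 5 nearest on each side are left out, so the order is not continuous. Open dots at the bottom are values listed at 0. Of the 35 genes, 9 were listed at 0 in every library, S100a6 has the highest Exosc3-depleted values, and S100a3 has red dots above blue ones listed at 0.

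Genes with the profile most like S100a6 and Anxa5 were found among the 6631 other rows with a mean of at least 2 FPKM, by the Euclidean distance between log2 profiles centred over the 4 libraries. For S100a6 these were Ms4a10 and Cpz, each at a distance of 0.188, and Cyr61 at 0.620. Cyr61, a secreted matrix protein, had 92.2 and 77.4 FPKM in Exosc3-depleted libraries, against 1.86 and 1.60 FPKM in Exosc3-present libraries. For Anxa5 these were Clk4 at 0.0756, Lrp1 at 0.0765 and Nupl2 at 0.0920. With 4 libraries in 2 groups, the distance mostly compares 1 difference between groups.

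Markers of other cell types in which S100 proteins and annexins are abundant were read beside these results. Of all 9336 rows, 12.6% were higher and 30.1% lower. Among the markers counted as higher, Hand1 (trophectoderm), Gata6, Sox17 and Pdgfra (primitive endoderm), Twist1 and again Pdgfra (fibroblast) and Tek (endothelium) passed the filter only through the Exosc3-depleted libraries. The 10 trophectoderm markers, 6 of 7 tested higher and 1 lower, summed to 158 and 127 FPKM in Exosc3-depleted libraries, against 35.3 and 39.3 FPKM in Exosc3-present libraries. The keratins Krt8, Krt18 and Krt19 made up most of that sum in every library. Cdx2, Elf5 and Gata3 averaged under 0.5 FPKM and were not tested, and Eomes was the 1 that fell. The 10 primitive endoderm markers, 6 of 8 tested higher, summed to 87.8 and 91.1 FPKM in Exosc3-depleted libraries, against 30.8 and 40.0 FPKM in Exosc3-present libraries. Col4a1, Col4a2 and Lama1 made up most of that sum in every library, and Lama1 did not pass (log2 difference 0.01, limma adjusted p = 0.987). The 10 stratified epithelium markers, 2 of 2 tested higher, summed to 253 and 227 FPKM in Exosc3-depleted libraries, against 51.3 and 53.8 FPKM in Exosc3-present libraries. In that list Sfn and Perp made up nearly all of the sum, while Ivl and Trp63 were listed at 0 in all libraries and 8 of the 10 averaged under 0.5 FPKM. The 10 fibroblast markers, 3 of 5 tested higher and 1 lower, summed to 12.5 and 9.82 FPKM in Exosc3-depleted libraries, against 6.78 and 7.51 FPKM in Exosc3-present libraries, with Dcn, Lum and Postn at 0. The macrophage markers, 1 of 1 tested higher, summed to 3.81 and 3.95 FPKM in Exosc3-depleted libraries, against 2.21 and 1.73 FPKM in Exosc3-present libraries, with Lyz2 and Emr1 at 0. The 8 endothelial markers, 1 of 4 tested higher and 2 lower, summed to 11.3 and 14.5 FPKM in Exosc3-depleted libraries, against 19.7 and 22.1 FPKM in Exosc3-present libraries, with Emcn at 0. The part of any of these cell types in the S100 and annexin levels was not tested.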

How the data were processed

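RNA-seq of 2 Exosc3-depleted and 2 Exosc3-present libraries of mouse embryonic stem cells was read from 1 table of FPKM values, which the authors deposited with a UCSC identifier and symbol per row. Per the labels' protocols, libraries were made from RNA with a RIN of 8.5 or more. Named in the submitters' processing notes are the mm9 build, Bowtie2, STAR, Picard, bedtools and edgeR without roles; which step made the FPKM values is not given in the sources used here.

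Differences were taken on log2(FPKM + 0.5), computed from the deposited FPKM, which understates the change of low genes. Rows were tested in R 4.3.3 with limma 3.58.1, with the prior variance following intensity, over 9336 rows with a mean of at least 0.5 FPKM, two-sided, with 2 residual degrees of freedom, no covariate and Benjamini-Hochberg adjustment over these rows at 0.05. It was tested on simulated data. Fold ratios are ratios of mean FPKM. Fragments were recovered from whole steps of FPKM and served depth, intervals and floors only. A symbol with several rows was read from the row of highest mean. Percentiles rank group means among rows above 0 in any library.

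The genes and lists were chosen with earlier results of these data known, and some named genes of each list beyond the 4 of smallest p were chosen after their values were seen. Listed genes were matched by symbol or older symbol. Promoters and gene order are from RefSeq, GRCm38.p6, matched by symbol and with no coordinate of mm9 used. Alternatives covered the pseudocount, the filter, scaling, the variance trend, a block for the replicate number, and leaving out single libraries. Family sums under other scalings were added after the data were seen. Figures and summaries used Python 3.11.15.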

Additional observations from a re-analysis of the deposited data

How the results depend on the processing

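Over 14 counts and 14 alternatives, 161 of 196 recomputed counts equalled the value reported or lay within 1.5 times of it. The 161 include counts of 0 that stayed at 0 in lists with few tested genes, such as other annexins that rose, and these say little about stability. The number of rows that rose was 667 with a filter at a mean of 2 FPKM, and 668 to 2183 with 1 library left out, the lowest being 668 and 671 without an Exosc3-present library. The number that fell was 1589 after median-of-ratios scaling, 1794 after quantile normalization and 1330 after scaling without the 50 highest rows, and 1082 to 4715 with 1 library left out. Other S100-domain genes that rose numbered 2 with no filter, 0 of 0 tested at a mean of 2 FPKM and 0 of 1 tested when the filter used Exosc3-present libraries only, which drops S100a3; 0 to 1 fell with 1 library left out. Other annexins that fell numbered 1 after median-of-ratios scaling and 0 to 3 with 1 library left out, where 0 (limma, without Exosc3-present replicate 2) stands beside 3 at an unadjusted p under 0.05.

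For membrane repair genes, 2 to 6 rose and 0 to 7 fell with 1 library left out, the lowest without either Exosc3-present library; 1 fell with no filter and 0 fell under each of the 3 scalings, where limma gave 0, 1 and 0 at an unadjusted p under 0.05. Other EF-hand genes that rose numbered 6 after median-of-ratios scaling, 7 after quantile normalization and 7 without the 50 highest rows, with 2 to 7 rising and 7 to 16 falling with 1 library left out. Neighbouring genes that rose numbered 5 with no filter, and with 1 library left out 1 to 3 rose and 0 to 1 fell. The cause of these moves was not tested.

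Filters, the trend and the block cannot change a log2 difference. Under the 9 alternatives that can, 54 of 81 recomputed log2 differences of the chosen genes moved by less than the spread between replicates. By the way both are computed, leaving out 1 library cannot move a value past that spread. Stability is therefore not read from the 54. Another 25 moved by more, with the same sign, under other scalings or pseudocounts. The other 2, both of S100a4 with 1 library left out, changed sign (range -0.19 to 0.40). The labels give both groups the same replicate numbers, but only a number is shared: same-numbered libraries correlated in their deviations at 0.24. With the replicate number as a block, 1431 rows rose and 3468 fell, and 4 membrane repair genes fell; the other list counts stayed within 1.5 times. With 1 library left out, the lone library is taken to vary like the other group. S100a4, S100a1 and S100a13 are limited by their fragment counts.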
